A study of Homo sapiens with 6 samples.

Results

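The expression of PPARA and 7 genes of fatty acid handling (CPT1A, CPT2, ACADM, ACADVL, PDK4, FABP1 and PLIN2) was compared between Huh7 P and Huh7 LR cells. These 8 genes were chosen by name, and each matched 1 row of the 19974 annotated genes in the deposited table. Huh7 is a human hepatocellular carcinoma line, labelled as genotype WT. Huh7 P is the untreated parental line, and Huh7 LR was derived from it by lenvatinib exposure raised from 1 to 20 μM over about 10 months. Lenvatinib is an inhibitor of several receptor tyrosine kinases. Poly(A) RNA of 3 samples per line was sequenced, and the study's methods describe the samples of a line as independent, without saying whether they were separate cultures, so p-values measure only the spread between these samples. The 3 Huh7 LR samples come from a single derived line, so the effects of the drug, of selection and of long culture cannot be told apart. Huh7 LR was kept in medium with lenvatinib, but whether the plates taken for RNA held it is not stated in the sources used here. In such bulk samples, fewer cells that express a gene and less of its RNA per cell cannot be told apart.

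PPARA is a nuclear receptor that binds fatty acids and, as a dimer with an RXR receptor, switches on genes of fatty acid breakdown in the fasting liver. Its response element is a repeat of the hexamer AGGTCA with a single base between the copies. Long fatty acids are carried in the cytosol by FABP1 and enter mitochondria through CPT1A and CPT2. They are then shortened by dehydrogenases such as ACADVL and ACADM. Surplus fatty acids are stored in lipid droplets, which PLIN2 coats, while PDK4 holds back the oxidation of pyruvate.

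In Huh7 LR cells, FABP1, CPT1A and PLIN2 were higher than in Huh7 P cells, by 1.75-fold, 1.64-fold and 1.41-fold. ACADM was lower, at 0.787 of its level in Huh7 P. PPARA, CPT2, ACADVL and PDK4 did not pass the test. Thus 4 of the 8 genes passed an adjusted p of 0.05 in edgeR's quasi-likelihood test, against 45.7% of all 17531 genes and loci tested (23.3% higher and 22.4% lower). None of the 8 reached an adjusted p of 0.001 with a change above 2-fold, which 6.21% of all genes did (4.43% higher and 1.78% lower), and the log2 fold changes (Huh7 LR over Huh7 P, called log2 changes from here on) of the 8 lay between -0.40 and 0.81. The lines did not overlap for 6 of the 8 genes, against 55.9% of all genes. With 8 genes, these counts are not set apart from the shares of all genes and are no result about the group. Their median log2 change was -0.02, and that of all genes tested was 0.0046.

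The promoters of the 3 genes that rose and of ACADM, which fell, are shown because PPARA acts through a response element of known sequence. They are the 250 bases before the RefSeq start (GRCh38.p14), in the direction of transcription: FABP1 at chr2:88128063-88128312 (minus strand), CPT1A at chr11:68844278-68844527 (minus strand), PLIN2 at chr9:19127493-19127742 (minus strand) and ACADM at chr1:75724459-75724708 (plus strand). Capitals mark the nuclear receptor hexamer AGGTCA, the TATA box TATAAA and the GC box GGGCGG, each on either strand. For all 4 genes the GENCODE gene reaches upstream of the RefSeq start, so all of the printed bases of ACADM and PLIN2 and part of those of FABP1 and CPT1A lie inside the gene annotated there.
FABP1: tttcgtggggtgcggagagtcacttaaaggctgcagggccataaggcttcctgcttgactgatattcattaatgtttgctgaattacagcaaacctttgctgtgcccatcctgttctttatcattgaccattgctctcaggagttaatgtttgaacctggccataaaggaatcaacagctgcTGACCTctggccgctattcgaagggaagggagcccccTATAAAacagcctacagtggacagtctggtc
CPT1A: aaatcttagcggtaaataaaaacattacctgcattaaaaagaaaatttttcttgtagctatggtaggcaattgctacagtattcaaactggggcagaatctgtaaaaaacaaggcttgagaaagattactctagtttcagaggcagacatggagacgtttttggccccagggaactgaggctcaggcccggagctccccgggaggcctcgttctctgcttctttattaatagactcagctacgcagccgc
PLIN2: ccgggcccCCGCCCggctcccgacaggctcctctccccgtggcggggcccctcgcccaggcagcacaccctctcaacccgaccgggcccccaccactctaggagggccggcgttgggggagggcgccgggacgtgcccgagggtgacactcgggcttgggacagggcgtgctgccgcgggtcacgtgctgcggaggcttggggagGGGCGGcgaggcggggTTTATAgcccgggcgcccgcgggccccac
ACADM: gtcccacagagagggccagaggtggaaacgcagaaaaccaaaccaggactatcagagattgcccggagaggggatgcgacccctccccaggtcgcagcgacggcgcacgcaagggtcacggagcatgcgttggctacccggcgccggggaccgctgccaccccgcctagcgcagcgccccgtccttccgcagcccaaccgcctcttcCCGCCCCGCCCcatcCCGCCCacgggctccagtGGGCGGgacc

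Among the 10 promoter windows of the 8 genes (300 bases each, 50 of them after the start; PPARA and ACADVL have 2 windows), only that of FABP1 held AGGTCA, and that of CPT1A held none of the motifs. The FABP1 window held the hexamer on the minus strand at base -68 and on the plus strand at base 12, which lies after the start and is not printed. The hexamer was present in 13.8% of all 35116 windows. The repeat AGGNCANAGGNCA, which allows any base at a single position of each hexamer, was in 0 of the 10 windows and in 0.310% of all windows. TATAAA was in 3 of the 10 windows and in 11.5% of all, and GGGCGG in 7 of the 10 and in 45.0% of all. These are matches of letters. Elements farther from the start or in introns lie outside the windows.

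Depth was similar in both lines, with 62738937 to 71427573 counted reads in a Huh7 P library and 63233655 to 70768720 in a Huh7 LR library. Levels are given as CPM, counts scaled to equal library size with edgeR's TMM factors. A gene with no count could still have had 3 counts, or 0.042 to 0.048 CPM depending on the library, a limit for counting error only. All 10 hepatocyte and hepatocellular carcinoma markers were expressed, with a summed level of 40787 to 49293 CPM in Huh7 P and 51408 to 54228 CPM in Huh7 LR. Of these markers, 4 were higher in Huh7 LR (ALB, APOA1, TTR and FGB) and 0 lower in edgeR (1 lower at an unadjusted p under 0.05), and their part in the changes described here was not tested. The 5 adipocyte markers, which include PLIN1 and FABP4, summed to at most 0.742 CPM in any library, and ADIPOQ and LEP had no counts. The 6 fibroblast markers summed to at most 2.28 CPM in Huh7 P and to 5.02 to 8.02 CPM in Huh7 LR, both that could be tested were higher there, and DCN had no counts. The 6 leukocyte markers summed to 62.0 to 67.6 CPM in Huh7 P and 9.84 to 13.8 CPM in Huh7 LR, which was mostly LYZ (lower in Huh7 LR), and TYROBP and HLA-DRA had no counts. The 4 enterocyte markers (VIL1, FABP2, SI and LCT) summed to 498 to 521 CPM in Huh7 P and 410 to 513 CPM in Huh7 LR, where VIL1 was lower and LCT and SI were higher. The part of these cell type markers in the results was not tested.

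**Figure D1:**
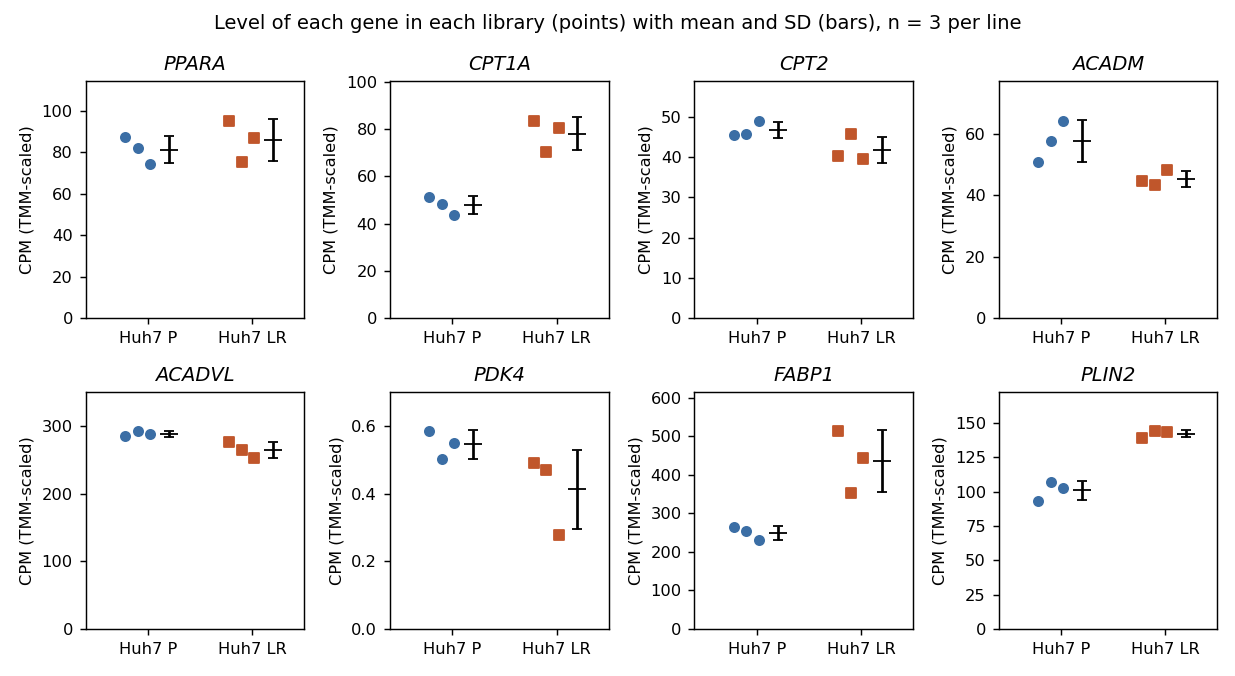
Level in TMM-scaled CPM (vertical axes from 0, a different scale for each gene) of the 8 genes in each of 3 Huh7 P libraries (circles) and 3 Huh7 LR libraries (squares), with the mean and SD beside them. The lines separate without overlap for CPT1A, FABP1 and PLIN2, which are higher in Huh7 LR, and for ACADM, ACADVL and PDK4, which have lower values there, while PPARA and CPT2 overlap.

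PPARA (ENSG00000186951, chromosome 22, 46150521 to 46243756 in GRCh38) is the receptor of the group. Its level was 87.5, 81.8 and 74.5 CPM in Huh7 P, against 95.3, 75.5 and 86.8 CPM in Huh7 LR. The libraries of the lines were interleaved. The log2 change was 0.08 (standard error, SE, 0.09, adjusted p = 0.528), with a 95% interval of -0.13 to 0.29, or 0.915-fold to 1.22-fold. A rise or fall of PPARA by 2-fold therefore lies outside the interval. Its sign depended on 1 library, since without Huh7 LR replicate 1 the log2 change was -0.0033.

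CPT1A (ENSG00000110090, chromosome 11, 68754620 to 68844410) is the liver form of the enzyme that joins long fatty acids to carnitine, the rate-limiting step of their entry into mitochondria. Its level was 51.4, 48.1 and 43.9 CPM in Huh7 P, against 83.6, 70.4 and 80.4 CPM in Huh7 LR. All 3 Huh7 LR libraries lay above the Huh7 P libraries. The log2 change was 0.71 (SE 0.09, adjusted p = 7.29e-05), with an interval of 0.52 to 0.90. CPT2 (ENSG00000157184, chromosome 1, 53196429 to 53214197) takes the carnitine off again on the inner side of the membrane. Its level was 45.4, 45.6 and 49.0 CPM in Huh7 P, against 40.1, 45.6 and 39.5 CPM in Huh7 LR. Huh7 LR replicate 2 lay within the range of Huh7 P and the other 2 Huh7 LR libraries lay below it. The log2 change was -0.16 (interval -0.33 to 0.01, adjusted p = 0.119). Without Huh7 LR replicate 2 it was -0.22, and the adjusted p was 0.0257.

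ACADVL (ENSG00000072778, chromosome 17, 7217125 to 7225273) starts the oxidation of very long fatty acids in mitochondria. Its level was 285, 293 and 288 CPM in Huh7 P, against 276, 265 and 253 CPM in Huh7 LR. Each Huh7 LR value was below each Huh7 P value, but the difference did not pass the test (log2 change -0.12, interval -0.27 to 0.02, adjusted p = 0.149). ACADM (ENSG00000117054, chromosome 1, 75724347 to 75787575) does the same for fatty acids of medium length. Its level was 50.9, 57.8 and 64.3 CPM in Huh7 P, against 44.6, 43.3 and 48.3 CPM in Huh7 LR, again without overlap. Its log2 change was -0.35 (SE 0.09, interval -0.55 to -0.15, adjusted p = 0.00942). On the authors' FPKM values the change was smaller and no longer passed, with a log2 change of -0.23 and an adjusted p of 0.0511 on log2(FPKM + 0.1) in limma-trend. ACADM shares 157 exon bases (3.28%) with RABGGTB on its strand, and with both genes summed the log2 change was -0.41.

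FABP1 (ENSG00000163586, chromosome 2, 88122982 to 88128116) encodes the liver fatty acid-binding protein, an abundant carrier in hepatocytes. Its level was 265, 254 and 230.0 CPM in Huh7 P, against 514, 352 and 445 CPM in Huh7 LR. The Huh7 LR libraries were all higher, and they spread more widely, from 352 to 514 CPM. The log2 change was 0.81 (SE 0.12, interval 0.54 to 1.07, adjusted p = 2.76e-04). PLIN2 (ENSG00000147872, chromosome 9, 19108375 to 19149290) coats lipid droplets in most cell types. Its level was 93.5, 107 and 103 CPM in Huh7 P, against 139, 144 and 143 CPM in Huh7 LR. The Huh7 LR libraries were close together and all above Huh7 P. The log2 change was 0.49 (SE 0.07, interval 0.34 to 0.65, adjusted p = 2.26e-04).

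PDK4 (ENSG00000004799, chromosome 7, 95583499 to 95596491) is a kinase that inactivates pyruvate dehydrogenase. It was barely expressed in either line, with 42, 31 and 36 counts in Huh7 P, against 32, 33 and 19 counts in Huh7 LR. These counts are 0.585, 0.502 and 0.551 CPM against 0.491, 0.471 and 0.279 CPM. All 3 Huh7 LR values were lower, without overlap, but the difference did not pass the test. The log2 change was -0.40 (SE 0.35, adjusted p = 0.375), and its interval of -1.16 to 0.36 (0.446-fold to 1.28-fold) was the widest of the 8 genes. A 2-fold fall of PDK4 lies inside this interval and a 2-fold rise outside it. The value leaned on 1 library, since without Huh7 LR replicate 3 the log2 change was -0.18.

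**Figure D2:**
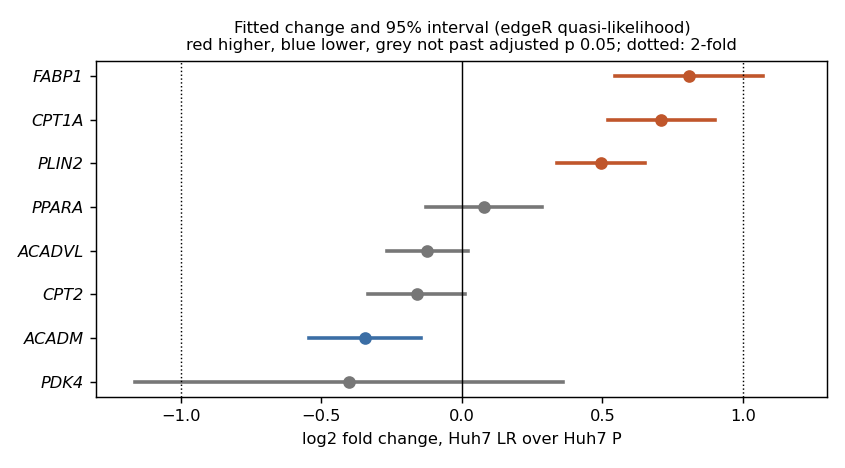
Log2 change of Huh7 LR over Huh7 P (horizontal axis) with its 95% interval from edgeR's quasi-likelihood fit for the 8 genes. The intervals of FABP1, CPT1A and PLIN2 lie above 0 and that of ACADM below it, the other 4 include 0, and only those of FABP1 and PDK4 reach past a 2-fold change (dotted lines).

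Levels of different genes were compared on the authors' FPKM values, which account for transcript length. In both lines FABP1 was the highest of the 8 genes, with a mean of 372 FPKM in Huh7 P and 649 FPKM in Huh7 LR. ACADVL followed with 131 and 118 FPKM, PLIN2 with 47.3 and 67.8 FPKM, and ACADM with 24.5 and 20.8 FPKM. In Huh7 P the next were CPT2 with 14.5 to 15.5 FPKM and CPT1A with 7.84 to 9.24 FPKM, whose libraries did not overlap. In Huh7 LR these enzymes overlapped, CPT1A with 14.2 ± 1.40 FPKM (SD, n = 3) and CPT2 with 13.3 ± 1.16 FPKM (SD, n = 3). In Huh7 P, CPT1A also overlapped PPARA, which had 7.61 ± 0.697 FPKM (SD, n = 3), whereas in Huh7 LR it lay above PPARA at 8.22 ± 1.05 FPKM (SD, n = 3). PDK4 was last, with 0.138 FPKM in Huh7 P and 0.107 FPKM in Huh7 LR.

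For 4 of the genes the close relatives were compared as a family, and the share of each gene in its family's summed FPKM was tested with a two-sided exact permutation test. With 3 libraries against 3 the smallest p this test can give is 0.1. FABP1 made up 77.8%, 75.6% and 75.4% of the FABP family in Huh7 P, against 91.8%, 87.4% and 89.9% in Huh7 LR (exact permutation p = 0.1). The share was larger in each Huh7 LR library, with a rise of FABP1 and a fall of FABP5, the epidermal form, from 105, 113 and 101 CPM to 60.7, 66.6 and 67.2 CPM. The log2 change of FABP5 was -0.71 (adjusted p = 2.31e-05), and FABP5 has closely similar pseudogenes, so its reads may be split. FABP3 (log2 change -0.19, adjusted p = 0.659) and FABP6 (1.13, adjusted p = 0.122) stayed below 1 CPM, and FABP2 and FABP4 were too low to test.

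PLIN2 made up 45.5%, 50.5% and 48.5% of the perilipins in Huh7 P, against 61.5%, 60.8% and 62.6% in Huh7 LR, again without overlap (exact permutation p = 0.1). PLIN3, the other abundant perilipin, fell from 90.8 ± 3.56 to 74.4 ± 3.96 CPM (SD, n = 3), a log2 change of -0.29 (adjusted p = 0.00586). PLIN4 rose, with a log2 change of 0.40 (adjusted p = 0.0194), but it did not pass without Huh7 LR replicate 3, Huh7 P replicate 2 or Huh7 P replicate 3, where the adjusted p was 0.0622, 0.0719 and 0.0839, nor in limma-trend on log2(FPKM + 1) without a filter (adjusted p = 0.0656). PLIN1 (log2 change 1.11, adjusted p = 0.0657) and PLIN5 (-0.35, adjusted p = 0.371) did not pass, although PLIN1 did without Huh7 P replicate 2 (adjusted p = 0.0467). With each library left out PLIN5 ranged from -0.51 to -0.065, the latter without Huh7 LR replicate 2, and it was at -0.20 without Huh7 P replicate 1.

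In the CPT1 family the share of its main member overlapped between the lines. CPT1A was 65.8%, 63.3% and 64.5% of it in Huh7 P, against 67.7%, 62.9% and 66.0% in Huh7 LR, and the difference of 0.976 percentage points was within the spread of the libraries (exact permutation p = 0.6). Its sign turned to -0.449 points on counts and to -0.102 points without Huh7 LR replicate 1. CPT1B, known as the muscle form, rose beside CPT1A from 10.5 ± 0.741 to 17.9 ± 0.238 CPM (SD, n = 3), with a log2 change of 0.77 (adjusted p = 6.96e-05). CPT1B shares 66.4% of its exon bases with the read-through gene CHKB-CPT1B, and with both summed the log2 change was 0.67. CPT1C, the brain form, was at 0.214 CPM or less in every library (log2 change -0.91, adjusted p = 0.213).

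PDK4 was a small part of its kinase family, at 2.03%, 1.64% and 2.01% in Huh7 P, against 1.56%, 1.42% and 0.744% in Huh7 LR (exact permutation p = 0.1). The difference was -0.652 percentage points, and -0.404 without Huh7 LR replicate 3. PDK3 rose from 4.13 ± 0.578 to 7.50 ± 0.554 CPM (SD, n = 3), a log2 change of 0.86 (adjusted p = 5.28e-04). PDK1 and PDK2 did not pass, with log2 changes of -0.13 (adjusted p = 0.565) and 0.16 (adjusted p = 0.288), but PDK2 passed without Huh7 LR replicate 1, with a log2 change of 0.28 (adjusted p = 0.0270). The sign of PDK1 turned in the limma-trend fits on FPKM (0.058 to 0.084) and without Huh7 LR replicate 2 (0.065).

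**Figure D3:**
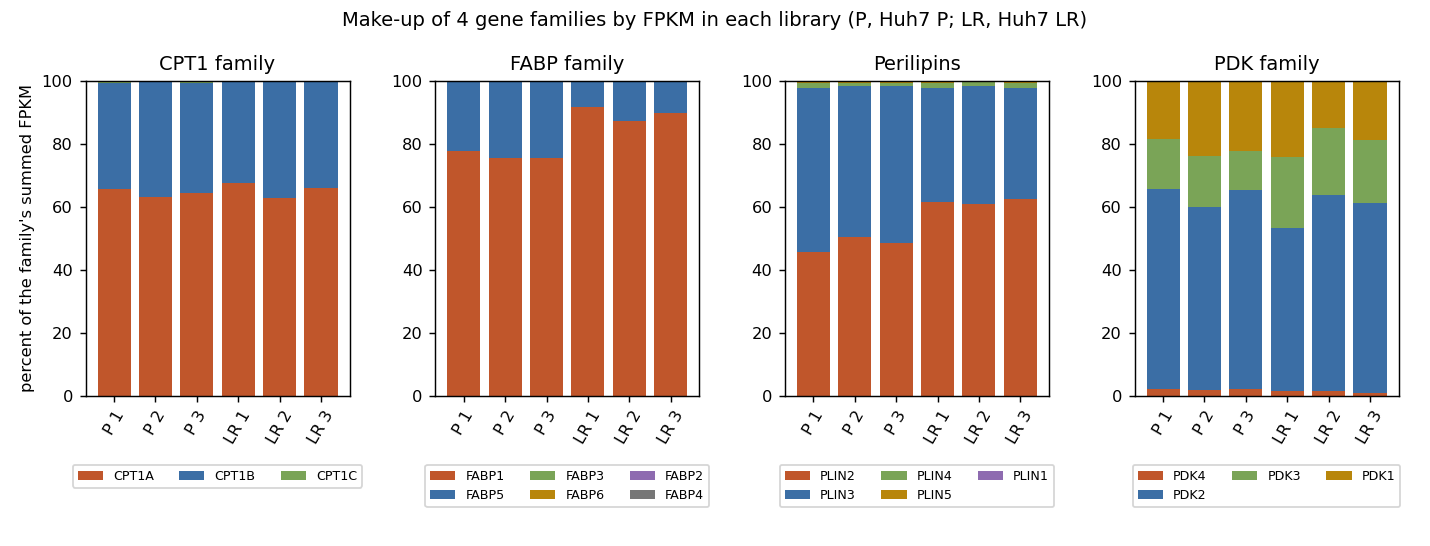
Share of each gene in the summed FPKM of its family (percent, stacked to 100) in the 3 Huh7 P and 3 Huh7 LR libraries for the CPT1, FABP, perilipin and PDK families. FABP1 is 75.4% to 77.8% of its family in Huh7 P and 87.4% to 91.8% in Huh7 LR, and PLIN2 is 45.5% to 50.5% and then 60.8% to 62.6%, while the share of CPT1A overlaps between the lines.

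The wider pathway was described with 10 lists written from general knowledge. They hold 130 genes, of which 122 are not among the 8, and 109 of these 122 were tested. Of these 109, 44 were higher and 23 lower in Huh7 LR at an adjusted p of 0.05, where all genes gave 23.3% and 22.4%. Their median log2 change was 0.16. Since lists overlap and were chosen with results known, they were given no test of their own.

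Of the partners of PPARA, RXRA and RXRB rose and PPARD, a relative of PPARA expressed in most tissues, did too. RXRA went from 61.7 ± 4.36 to 76.4 ± 4.28 CPM (SD, n = 3), with a log2 change of 0.31 (adjusted p = 0.00669), and PPARD had one of 0.50 (adjusted p = 7.16e-04). PPARG, the adipocyte relative, fell with a log2 change of -0.36 (adjusted p = 0.00285), and so did the coactivator PPARGC1B with -0.39 (adjusted p = 0.0039), which did not pass in limma-trend on log2(FPKM + 1) without a filter (adjusted p = 0.0691). PPARGC1A, the coactivator induced by fasting, stayed at 0.366 CPM or less and did not pass (log2 change 1.02, adjusted p = 0.0931). In the whole list of 13 receptors and cofactors tested, 3 were higher, 4 lower and 6 did not pass.

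In the list of fatty acid uptake, binding and activation, 6 of 17 genes tested were higher and 1, FABP5, was lower. SLC27A2, a transporter and acyl-CoA synthetase of liver, rose from 35.5 ± 3.84 to 81.1 ± 6.37 CPM (SD, n = 3), a log2 change of 1.19 (adjusted p = 3.73e-06). ACSL5, which activates fatty acids to acyl-CoA, rose with a log2 change of 1.06 (adjusted p = 2.63e-06), and its low-abundance relative ACSL6 with one of 2.09 (adjusted p = 2.36e-04) up to a mean of 1.57 CPM. On log2(FPKM + 1) without a filter, a scale that shrinks the changes of low genes, ACSL6 was at 0.41 and still passed. Without Huh7 LR replicate 1, 3 genes of this list were lower in place of 1.

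In the list of the carnitine shuttle and malonyl-CoA, 6 of 10 genes were higher and 0 lower in edgeR. With each library left out, 4 to 6 were higher. At an unadjusted p under 0.05 or with DESeq2, 0 were lower. Of the 10 genes, SLC22A5, the carnitine importer of the cell membrane, changed most. It rose from 7.06 ± 0.283 to 17.6 ± 3.94 CPM (SD, n = 3), with a log2 change of 1.32 (adjusted p = 5.34e-05). MLYCD, which removes the CPT1 inhibitor malonyl-CoA, had a log2 change of 0.33 (adjusted p = 0.0347), which did not pass in 7 of 16 alternatives, among them the omission of Huh7 P replicate 1 or 2 or of Huh7 LR replicate 2 or 3. ACACB, which makes malonyl-CoA, was also among the higher genes, with a log2 change of 0.28 (adjusted p = 0.00653). Without Huh7 LR replicate 2, 1 gene of the list, CPT2, was lower.

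Of 18 enzymes of mitochondrial β-oxidation tested, 3 were higher, 6 lower and 9 did not pass, all with log2 changes between -0.35, that of ACADM, and 0.42. ACAD10, a dehydrogenase with less-studied substrates, rose with a log2 change of 0.42 (adjusted p = 5.70e-04). ACAD9, which also assembles respiratory complex I, fell with -0.30 (adjusted p = 0.00987) but did not pass in limma-trend on log2(FPKM + 1) without a filter (adjusted p = 0.0570). The count of 6 lower genes fell to 3 without Huh7 P replicate 2, Huh7 P replicate 3 or Huh7 LR replicate 3, and lay between 1 and 3 on FPKM values.

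In the peroxisome, where very long and branched fatty acids are shortened, 10 of 15 genes were higher and 2 lower. CROT, which hands shortened fatty acids to carnitine, rose from 23.8 ± 1.53 to 50.3 ± 6.86 CPM (SD, n = 3), a log2 change of 1.08 (adjusted p = 1.40e-05). AMACR, a racemase for branched fatty acids, had a log2 change of 0.80 (adjusted p = 1.03e-05), or 0.76 when summed with C1QTNF3-AMACR, which shares 55.0% of its exon bases. PECR, a peroxisomal reductase, had one of 0.78 (adjusted p = 2.06e-05). The 2 lower genes became 1 without Huh7 P replicate 1 and 0 without Huh7 P replicate 2 or 3.

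Among 6 genes of ketone bodies, 2 were higher and 3 lower. OXCT1, which uses ketone bodies and is normally silent in hepatocytes, was at 15.6, 15.9 and 16.1 CPM in Huh7 P, against 1.504, 1.70 and 1.25 CPM in Huh7 LR. It was the largest change of any listed gene that fell, with a log2 change of -3.42 (SE 0.14, adjusted p = 5.18e-08). BDH2, a short-chain dehydrogenase, rose with a log2 change of 0.62 (adjusted p = 3.34e-04). The 3 lower genes became 1 without Huh7 P replicate 2.

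In the pyruvate dehydrogenase list, which PDK4 belongs to, 2 of 12 genes were higher and 4 lower. PDHX and DLAT, the binding protein and the acetyltransferase of the complex, fell with log2 changes of -0.71 (adjusted p = 1.76e-05) and -0.66 (adjusted p = 1.40e-05). PDK3 and PDP1, a phosphatase that reverses the kinases, were the 2 higher genes. The count was 1 without Huh7 P replicate 2, Huh7 P replicate 3 or Huh7 LR replicate 3, and on FPKM values.

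In the list of lipid droplet coat and lipolysis, 10 of 17 genes were higher and 2 lower. The higher genes include the lipolysis genes PNPLA2 (log2 change 0.56, adjusted p = 9.46e-05), MGLL (0.78, adjusted p = 1.03e-05) and ABHD5 (0.30, adjusted p = 0.0275). DGAT2, which makes triglyceride, rose from 23.3 ± 2.34 to 50.7 ± 1.67 CPM (SD, n = 3), a log2 change of 1.12 (adjusted p = 3.33e-06). PNPLA3, a droplet protein linked to fatty liver, rose with a log2 change of 0.94 (adjusted p = 1.07e-04). CIDEC, which fuses droplets, fell from 49.6 ± 2.30 to 20.5 ± 3.49 CPM (SD, n = 3), a log2 change of -1.27 (adjusted p = 6.97e-06). The 10 higher genes became 6 without Huh7 P replicate 3. Of the ω-oxidation genes, all 3 that could be tested rose, CYP4F3 with a log2 change of 1.16 (adjusted p = 1.21e-06), CYP4V2 with 0.96 (adjusted p = 0.00112) and CYP4F12 with 0.56 (adjusted p = 4.89e-05). CYP4F genes are close paralogs between which reads may be split. CYP4A11, a textbook target of PPARA in human liver, had no count in any library.

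**Figure D4:**
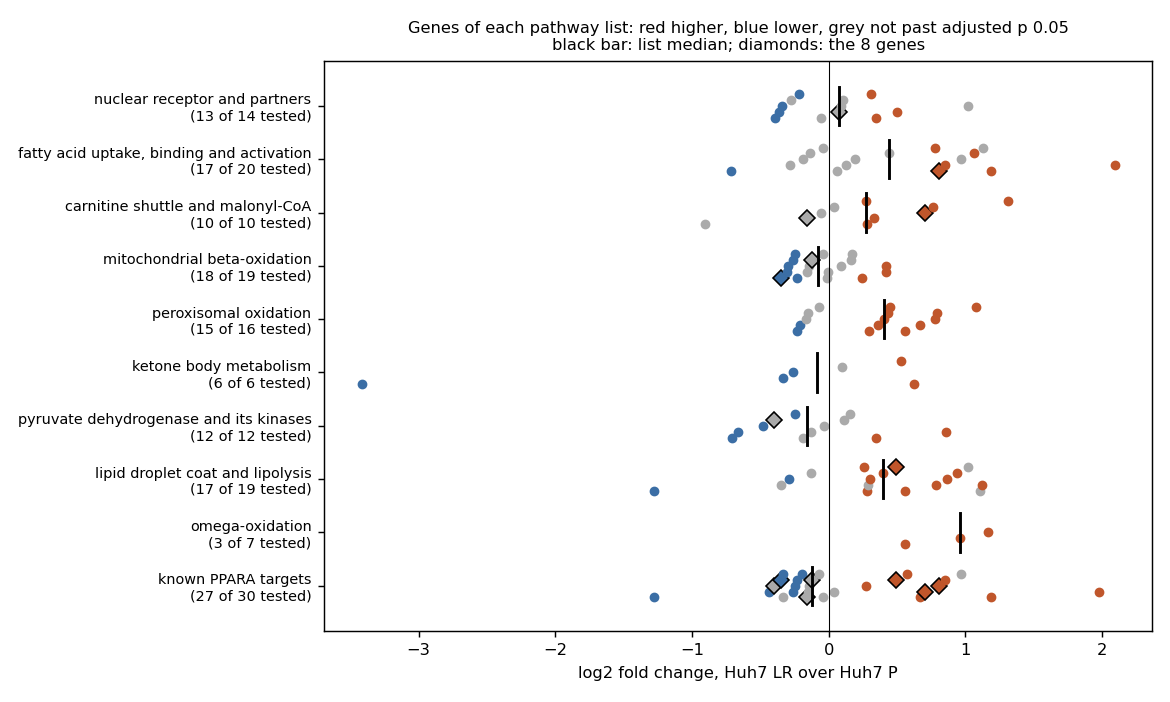
Log2 change of Huh7 LR over Huh7 P (horizontal axis) for each tested gene of 10 pathway lists (rows), coloured by whether it passed an adjusted p of 0.05, with the list median as a black bar and the 8 genes as diamonds. The list medians range from -0.16 for pyruvate dehydrogenase to 0.96 for ω-oxidation, which has 3 tested genes, and OXCT1 stands alone at -3.42.

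Of 27 textbook targets of PPARA tested, 9 were higher, 8 lower and 10 did not pass, where 23.3% of all genes were higher and 22.4% lower, and the median log2 change was -0.12. Without the 7 genes already described, 6 of 20 were higher and 7 lower, with a median of -0.11. ANGPTL4, a secreted inhibitor of lipoprotein lipase, rose from 2.42 ± 0.102 to 9.55 ± 1.43 CPM (SD, n = 3), a log2 change of 1.98 (SE 0.15, adjusted p = 2.51e-06), and its libraries did not overlap. FGF21, a fasting hormone of liver, had at most 3 counts in a Huh7 P library and 9 in a Huh7 LR library and was not tested. The count of 8 lower targets fell to 3 without Huh7 P replicate 2 or Huh7 LR replicate 3 and to 4 without Huh7 P replicate 3, and was between 3 and 5 on FPKM values.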

How the data were processed

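RNA of 3 Huh7 P and 3 Huh7 LR samples was measured by poly(A) RNA-seq. The authors deposited 1 table with raw read counts per gene, which they did not normalise, and FPKM values, which the authors scaled for transcript length and library size. The submitters' processing notes name TopHat2, Cufflinks, DESeq and the build mm10, without roles. The identifiers are human, and all 19974 are in GENCODE release 29 (GRCh38), used here for coordinates and exon overlap. The extraction label describes an insect sample. Strand use in counting is not given in the sources used here. Other named genes also share exon bases with neighbours and were not summed with them. Among these are PLIN5 (21.7%), ACSL6 (15.4%) and BDH2 (11.7%) on the same strand. On the opposite strand are PDK2 (38.6%) and SLC27A2 (19.9%). The table also holds 6210 unannotated loci, which were kept, and 34 lines of stray text, which were left out.

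Counts were tested in R 4.3.3 with edgeR 4.0.16 (filterByExpr with a minimum count of 10 and a total of 15, TMM factors of 0.977 to 1.03, quasi-likelihood test, Benjamini-Hochberg over 17531 genes and loci). Standard errors derive from the log2 fold change and F statistic. Passing means an adjusted p under 0.05. Depth was about equal between lines. Precision is limited by 3 samples each and, for genes with few counts such as PDK4, also by counting error. Replicates differed, with 0 identical pairs. Alternatives were other normalisations and filters, robust estimation, a replicate block, DESeq2 1.42.0, limma-trend (limma 3.58.1) on FPKM (minimum 0.5 FPKM in 3 libraries), shared exons summed, and each library left out. Summing read-through genes was added after seeing the data. The tests were tested on simulated data. Named genes were the 8 genes, their paralogs, up to 3 changed genes per list (at least 1 CPM, no overlap) and 7 fixed genes of the pathway. Some genes that this rule names are not reported here. PDP1, RXRB, ACACB, PNPLA2, MGLL, ABHD5 and marker genes outside this rule were named after their values were seen. The 8 genes and the lists were chosen with earlier results of these data known. Promoters are from RefSeq (GRCh38.p14), with all 8 genes matched. Permutation tests used scipy 1.17.1 and figures matplotlib 3.10.9.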

Additional observations from a re-analysis of the deposited data

How the results depend on the processing

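CPT1A, FABP1 and PLIN2 kept their direction and passed under each of the 16 alternatives. CPT1A ranged from 0.65 to 0.79 on the log2 scale, FABP1 from 0.67 to 0.95 and PLIN2 from 0.44 to 0.54. ACADVL and PDK4 did not pass under any alternative in which they were tested. PPARA was at -0.0033 without Huh7 LR replicate 1 (range with each library left out -0.0033 to 0.17) and CPT2 at -0.22 without Huh7 LR replicate 2 (range -0.22 to -0.12). ACADM did not pass in limma-trend on log2(FPKM + 0.1), log2(FPKM + 1) or log2(FPKM + 1) without a filter, where its log2 change was -0.23, -0.22 and -0.22. PDK1 was at 0.084, 0.058 and 0.058 in these fits and from -0.30 to 0.065 with each library left out, and FABP3 from -0.38 to 0.016, the highest values being those without Huh7 LR replicate 2 and Huh7 P replicate 2, and neither passed. The FABP1 share differed by 16.7 percentage points on counts in place of 13.4.

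Past both 2-fold and an adjusted p of 0.001 were 776 genes higher and 312 lower in edgeR, but 268 and 84 in limma-trend on log2(FPKM + 1), and 185 and 59 there without a filter. On log2(FPKM + 0.1), log2(FPKM + 1) and log2(FPKM + 1) without a filter, lower genes numbered 2, 3 and 1 in mitochondrial β-oxidation (6 in edgeR) and 4, 5 and 3 among PPARA targets (8 in edgeR), and 1 gene each was higher in the pyruvate dehydrogenase list (2 in edgeR). Without the filter, 0 peroxisomal genes were lower and 6 lipid droplet genes higher. With library size alone, 1 peroxisomal gene was lower, and with DESeq2 or the replicate block 2 uptake genes were lower. With each library left out, the genes lower were 1 to 3 for uptake, 0 to 1 for the carnitine shuttle, 3 to 5 for mitochondrial β-oxidation, 0 to 2 for the peroxisome, 1 to 3 for ketone bodies and 3 to 7 for PPARA targets, and the genes higher were 1 to 3 for pyruvate dehydrogenase and 6 to 10 for lipid droplets. The cause of these changes was not tested. The replicate numbers are not stated to pair the samples, and same-numbered libraries deviated together only weakly (correlations of 0.029 to 0.032, each the highest for its libraries, a hint from the data and not the design). A replicate block gave 783 higher and 316 lower calls and changed no call of the 8 genes.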

Other observations

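Within each line, PPARA, CPT1A and FABP1 ranked the libraries alike, with Huh7 P replicate 1 highest and replicate 3 lowest, and with Huh7 LR replicate 1 highest and replicate 2 lowest. Of all genes tested, 5.66% had this order in both lines and 6.49% the opposite order. Over the 6 libraries, the genes with at least 1 CPM whose log2 level correlated best with that of PPARA were UBE4A (Pearson's r = 0.992), TMEM256 (r = 0.990) and TMEM91 (r = 0.988), given as a description of 6 points that share their libraries. None of these passed the test between the lines, with log2 changes of 0.02, 0.11 and 0.22.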
